A study of Mus musculus with 10 samples.

Results

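Surfactant is the lipid and protein film that lowers surface tension in the air spaces, and it is made by alveolar type 2 (AT2) cells late in gestation. SP-B and SP-C, small hydrophobic proteins encoded by Sftpb and Sftpc, spread the lipid film, and the collectins SP-A and SP-D, encoded by Sftpa1 and Sftpd, bind microbes and help regulate surfactant in the air space. The lipids are built by enzymes such as LPCAT1, loaded by the transporter ABCA3 into lysosome-related organelles called lamellar bodies, and secreted together with SP-B and SP-C, which proteases such as napsin A and cathepsin H cut from their precursors.

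The 10 genes described here are Sftpa1, Sftpb, Sftpc, Sftpd, Abca3, Lamp3, Napsa, Slc34a2, Lpcat1 and Ctsh. They are grouped here by their known function. Each was read from the probe set that carries its symbol alone, and all 10 have exactly 1 such probe set among the 17919 genes of the table. Mouse embryos at E18.5 gave 10 whole lungs, each measured on 1 Affymetrix array, on a background that the labels give as C57BL/6 and 129X1,129S6. The 5 knockout lungs carried Shhcre and Hdac3 fl/fl, so that Hdac3, a histone deacetylase of corepressor complexes, was deleted where Shh is expressed, which includes the lung epithelium. The 5 control lungs are labelled Shhcre without their Hdac3 alleles. Hdac3 fl/fl mothers were mated with Hdac3 fl/+ ShhCre fathers, so every embryo has at least 1 floxed allele. A control that carries ShhCre would be heterozygous for the deletion in its epithelium, and both groups share the Cre. Whole lung also contains mesenchyme, vessels and blood, in which Hdac3 is intact. In such bulk RNA, fewer AT2 cells and less RNA per AT2 cell cannot be told apart, and this applies to every level below.

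Values are log2 probe set levels, so a difference of 1 is a doubling. The level of Hdac3 itself ran from 10.67 to 10.90 in controls and from 10.34 to 10.61 in knockouts, with no overlap, and knockout 5 stood at 10.43. In both groups, principal component 2 (22.1% of variance) put replicates 4 and 5 below replicates 1 to 3, and the labels name no batch. Knockout 5 had the lowest level of the 5 knockouts in 9 of the 10 surfactant genes, against 23.1% of all genes, so the results below are also given without it where they differ. That choice rests on these same genes, and leaving the lung out raises the knockout mean of each of them. A gene was called when limma's adjusted p, over all 17919 genes, was under 0.05.

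Of the 10 genes, Lpcat1 alone was called, and it rose to 127% of the control level in the knockout. Sftpa1 was at 71.7% of the control level, but its knockout values were widely scattered and it was not called. Napsa and Ctsh were above the control mean in 5 of 5 knockout lungs and were not called with all lungs, but were called when knockout 5 was left out. Sftpb, Sftpc and Slc34a2, which encode the 2 hydrophobic surfactant proteins and the AT2 phosphate transporter, lay within 2% of the control mean. Over all genes, limma called 1.54% higher and 1.58% lower. Of the 10 genes, 1 was called higher and 0 lower, and a share that rests on 1 gene is imprecise. The median log2 change was 0.05 for the 10 genes and 0.0040 for all genes. Without knockout 5, limma called 3 of the 10 genes higher and 0 lower, against 2.13% and 1.77% of all genes. That lung was left out for its low levels in these same genes, which favours a rise, so these shares are not a like comparison. At an unadjusted p under 0.05, limma on all 10 lungs had 4 of the 10 genes, against 13.5% of all genes.

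**Figure D1:**
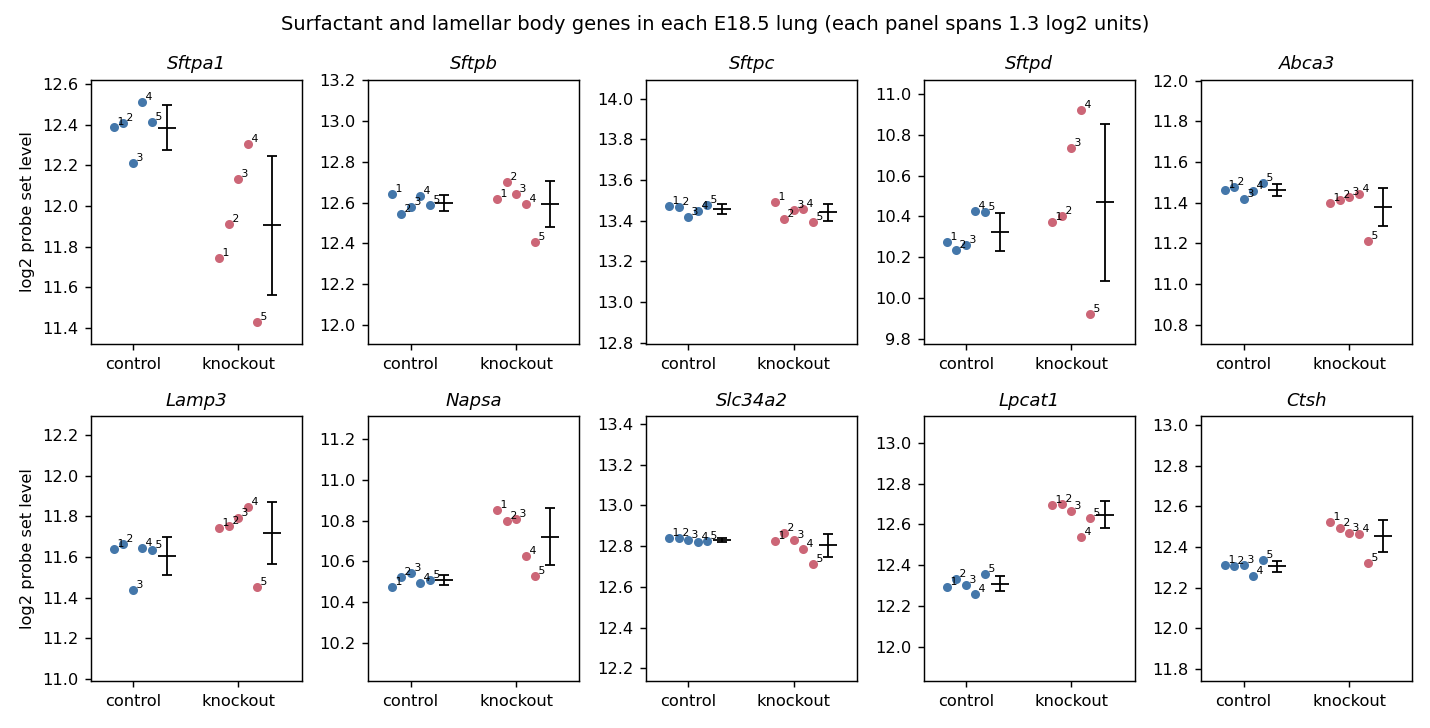
Log2 probe set level of each gene (vertical axis, 1.3 log2 units in every panel) in the 5 control lungs (blue) and the 5 knockout lungs (red); the number beside a point is the lung's replicate number, and the black bar is the mean with its SD. Lpcat1 is the only gene whose groups do not overlap, and knockout 5 is the lowest knockout lung in every panel but that of Lpcat1.

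Promoter sequence is shown for 4 of the genes because NKX2-1 and the FOXA factors, which are known to bind surfactant gene promoters, were themselves measured on the array. RefSeq's table for GRCm38.p6 gave a promoter for 6 of the 10 genes, and Sftpc, Sftpd, Napsa and Ctsh had no entry there. The 250 bases before each start site were searched on both strands for the NKX2-1 core CTCAAG and the FOXA core TGTTTNC, which did not overlap in these windows. Matches are in capitals, as read on the strand of the gene, where GCAAACA is a match of the FOXA core on the other strand. Lpcat1 is shown as the gene that was called, Sftpa1 as the one with the largest difference in the other direction, and Sftpb and Lamp3 for their matches.
Lpcat1, chr13:73466981-73467230, plus strand: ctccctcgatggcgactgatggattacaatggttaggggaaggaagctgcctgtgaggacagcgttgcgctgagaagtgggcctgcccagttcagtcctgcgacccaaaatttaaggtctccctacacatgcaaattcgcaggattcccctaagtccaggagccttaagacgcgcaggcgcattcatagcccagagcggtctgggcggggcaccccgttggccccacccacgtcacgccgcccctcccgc
Sftpa1, chr14:41131538-41131787, plus strand: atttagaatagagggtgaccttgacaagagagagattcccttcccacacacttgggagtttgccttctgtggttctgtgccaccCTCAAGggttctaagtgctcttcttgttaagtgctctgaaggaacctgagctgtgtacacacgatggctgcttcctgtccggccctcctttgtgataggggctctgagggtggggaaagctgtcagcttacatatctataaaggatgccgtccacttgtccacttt
Sftpb, chr6:72304360-72304609, plus strand: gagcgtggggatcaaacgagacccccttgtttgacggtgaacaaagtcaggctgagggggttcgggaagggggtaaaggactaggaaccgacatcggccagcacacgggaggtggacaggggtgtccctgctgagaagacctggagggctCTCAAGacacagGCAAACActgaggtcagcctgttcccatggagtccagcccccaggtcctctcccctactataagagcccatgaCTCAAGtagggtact
Lamp3, chr16:19706366-19706615, minus strand: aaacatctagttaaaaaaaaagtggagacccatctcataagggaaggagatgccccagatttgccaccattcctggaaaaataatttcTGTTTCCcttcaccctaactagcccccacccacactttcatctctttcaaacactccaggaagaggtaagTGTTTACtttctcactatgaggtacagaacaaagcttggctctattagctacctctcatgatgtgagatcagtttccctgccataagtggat

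The NKX2-1 core was present in 2 of the 6 promoters, once in Sftpa1, 166 bases before the start site, and in Sftpb at 100 and 15 bases before it. Of all 32851 promoter windows of this length in the table, 13.3% held it. The FOXA core was present in Sftpb, 88 bases before the start site, and in Lamp3 at 162 and 92 bases before it, against 17.8% of all windows. The windows of Lpcat1, Abca3 and Slc34a2 held neither string of letters.

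Lpcat1 encodes lysophosphatidylcholine acyltransferase 1, which remodels phosphatidylcholine into the disaturated form that surfactant needs. Its level was 12.29, 12.33, 12.30, 12.26 and 12.36 in controls 1 to 5 and 12.70, 12.70, 12.67, 12.54 and 12.63 in knockouts 1 to 5. The lowest knockout lung lay above the highest control lung. The control mean was 12.31 ± 0.04 and the knockout mean 12.65 ± 0.07 (SD, n = 5 each). This was a rise of 0.34 ± 0.05 (SE) on the log2 scale, with limma adjusted p = 0.00132 and a two-sided exact permutation p = 0.00794, the smallest that 252 assignments can give. Complete separation of the groups in either direction occurred in 5.11% of all genes. The 95% interval of the Lpcat1 level was 118% to 136% of control. Within same-numbered lungs the difference was 0.41, 0.37, 0.37, 0.28 and 0.28. With the groups fully separate, any pairing of the lungs gives positive differences only. In the 2 against 2 lungs numbered 4 and 5 the change was 0.28 and not called (limma adjusted p = 0.492).

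Napsa and Ctsh encode napsin A and cathepsin H, proteases that process the SP-B precursor. Napsa levels were 10.47, 10.52, 10.54, 10.50 and 10.51 in controls 1 to 5 and 10.85, 10.80, 10.81, 10.63 and 10.53 in knockouts 1 to 5. Knockouts 1 to 4 lay above every control, and knockout 5 lay inside the control range. The log2 change was 0.21 ± 0.06 (SE; limma adjusted p = 0.111, exact permutation p = 0.0159). Without knockout 5, Napsa rose by 0.26 ± 0.05 and was called (limma adjusted p = 0.0201).

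Ctsh levels were 12.31, 12.30, 12.31, 12.26 and 12.34 in controls 1 to 5 and 12.52, 12.49, 12.47, 12.46 and 12.32 in knockouts 1 to 5. Knockouts 1 to 4 were above every control, and knockout 5 was below control 5. The log2 change was 0.15 ± 0.05 (SE; limma adjusted p = 0.142, exact permutation p = 0.0159), and it was called without knockout 5 (0.18 ± 0.04, limma adjusted p = 0.0335). Napsa was also called with numbers 1 to 3 alone (0.31, limma adjusted p = 0.0235).

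Ctsh and Lamp3 are also expressed by macrophages and dendritic cells. The mean level of 12 markers of those cells ran from 7.36 to 7.52 in controls and from 7.32 to 7.42 in knockouts, and limma called 0 of them, with 1 at an unadjusted p under 0.05. Chil3, a chitinase-like protein of macrophages, had the smallest p in that list (-0.54, limma adjusted p = 0.204), followed by Adgre1, a macrophage surface receptor (-0.14, limma adjusted p = 0.379). Chil3 was called when control 3 was left out (limma adjusted p = 0.00544). The part of these cells in the values of Ctsh and Lamp3 was not tested.

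Lamp3, or DC-LAMP, is a glycoprotein of the lamellar body membrane. Its levels were 11.64, 11.67, 11.44, 11.64 and 11.64 in controls 1 to 5 and 11.74, 11.75, 11.79, 11.84 and 11.46 in knockouts 1 to 5. Knockouts 1 to 4 were above all controls, while knockout 5 was next to control 3 at the bottom of the range. The log2 change of 0.11 ± 0.07 (SE) was not called (limma adjusted p = 0.591), and without knockout 5 it was 0.18 ± 0.06 and still not called (limma adjusted p = 0.136). All knockouts but knockout 5 lay above all controls in 4 of the 10 genes, Lpcat1, Napsa, Ctsh and Lamp3. Separation of those 4 knockouts from all controls, in either direction, occurred in 7.65% of all genes. Knockout 5 was left out for its low levels in the surfactant genes, so this share is not a like comparison.

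Abca3, the lipid pump of the lamellar body membrane, was at 11.46, 11.48, 11.42, 11.46 and 11.50 in controls 1 to 5 and at 11.40, 11.41, 11.43, 11.44 and 11.21 in knockouts 1 to 5. All knockouts lay below the control mean, but 2 of them lay above control 3. The log2 change was -0.08 ± 0.05 (SE; limma adjusted p = 0.564, exact permutation p = 0.0317), and without knockout 5 it was -0.04 ± 0.04.

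Slc34a2, the sodium-phosphate cotransporter of the AT2 cell's apical membrane, had the smallest SD of the 10 genes among control lungs (0.0096). Its control levels ran from 12.82 to 12.84, and its knockout levels were 12.82, 12.86, 12.83, 12.79 and 12.71. Knockouts 4 and 5 were the lowest of all lungs. The log2 change of -0.03 ± 0.04 (SE) was not called (limma adjusted p = 0.869), and its 95% interval was 92.0% to 105% of control.

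Sftpb, which encodes SP-B, was at 12.64, 12.55, 12.58, 12.63 and 12.59 in controls 1 to 5 and at 12.62, 12.70, 12.64, 12.60 and 12.41 in knockouts 1 to 5. The groups overlapped, with knockout 2 the highest and knockout 5 the lowest of all lungs. The log2 change was -0.0052 ± 0.06 (SE; limma adjusted p = 0.985), with a 95% interval of 91.5% to 109% of control. Its sign turned without knockout 5 (0.04, limma adjusted p = 0.783).

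Sftpc, the gene of SP-C and a classical AT2 marker, was at 13.47, 13.47, 13.42, 13.45 and 13.48 in controls 1 to 5 and at 13.49, 13.41, 13.45, 13.46 and 13.39 in knockouts 1 to 5. The groups overlapped throughout. The log2 change was -0.02 ± 0.04 (SE; limma adjusted p = 0.932), and the 95% interval was 93.0% to 105% of control. These levels lay just under 13.61, the highest value in the table, and only 2 probe sets had a higher mean. Whether the array still follows the amount of RNA at that level was not tested.

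**Figure D2:**
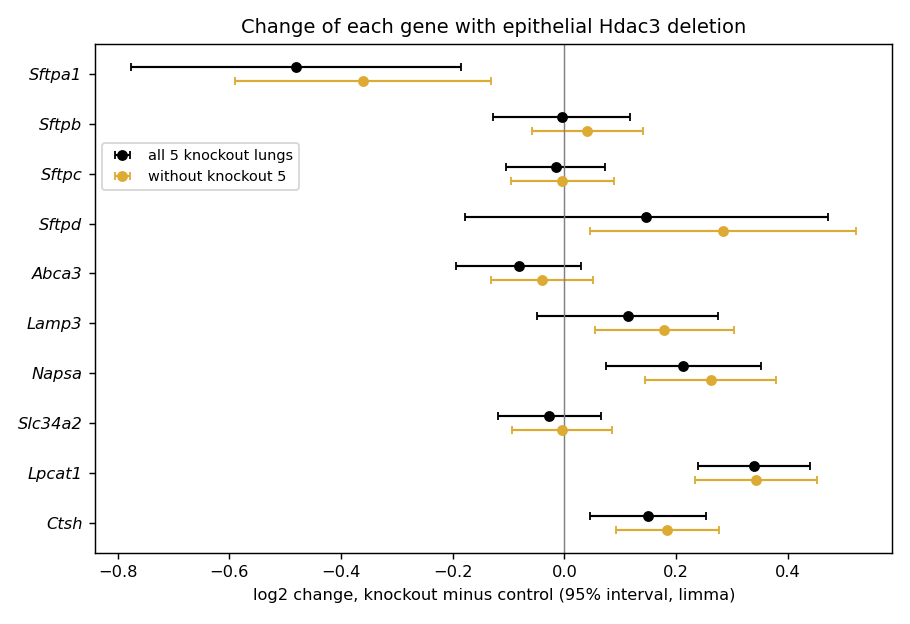
Log2 change of each gene, knockout minus control (horizontal axis), with its 95% interval from limma, for all 5 knockout lungs (black) and without knockout 5 (yellow). Lpcat1 lies furthest to the right at 0.34 and Sftpa1 furthest to the left at -0.48, and leaving out knockout 5 moves Sftpd from 0.15 to 0.28.

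The collectin genes Sftpa1 and Sftpd are near neighbours on chromosome 14, with Mbl1 between them among the protein-coding genes of GRCm38.p6. Sftpa1 levels were 12.39, 12.41, 12.21, 12.51 and 12.41 in controls 1 to 5 and 11.75, 11.91, 12.13, 12.31 and 11.43 in knockouts 1 to 5. All knockouts lay below the control mean, and knockout 4 alone lay above the lowest control. The control mean was 12.39 ± 0.11 and the knockout mean 11.91 ± 0.34 (SD, n = 5 each), a log2 change of -0.48 ± 0.14 (SE). It was not called (limma adjusted p = 0.0899, exact permutation p = 0.0159) and its 95% interval was 58.4% to 88.0% of control. Without knockout 4, Sftpa1 fell by 0.58 and was called (limma adjusted p = 0.0283). That was the only call in 10 single omissions (limma adjusted p from 0.0283 to 0.188), and it drops the knockout nearest the controls.

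Sftpd levels were 10.27, 10.24, 10.26, 10.43 and 10.42 in controls 1 to 5 and 10.37, 10.40, 10.74, 10.93 and 9.92 in knockouts 1 to 5. Knockouts 3 and 4 were the highest of all lungs and knockout 5 the lowest. The log2 change was 0.15 ± 0.15 (SE; limma adjusted p = 0.761), and it was 0.28 ± 0.11 without knockout 5 (limma adjusted p = 0.236). In the 2 against 2 lungs numbered 4 and 5 it was -0.0020.

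Although neither collectin gene was called, their levels moved together from lung to lung and were offset between the groups. This pair was singled out after its values were seen, and the offset is given as a description with no test. With group means removed, Sftpa1 and Sftpd correlated at r = 0.96 (Spearman's rho = 0.86) over the 10 lungs. Knockouts 4 and 5 had the largest deviations of Sftpa1 from the group mean (0.40 and -0.48), and leaving them out gave r = 0.82 over 8 lungs. Of 17918 other genes, only 1 followed Sftpa1 more closely than Sftpd did. The log2 difference Sftpa1 minus Sftpd was 2.11, 2.17, 1.95, 2.09 and 1.99 in controls 1 to 5 and 1.38, 1.51, 1.40, 1.38 and 1.51 in knockouts 1 to 5. The lowest control lay well above the highest knockout. Its mean was 2.06 ± 0.09 in controls and 1.44 ± 0.07 in knockouts (SD, n = 5 each), which puts the ratio of the signals in the knockout at 64.8% of that in the control. The scatter of 0.34 and 0.39 that each gene had over the knockout lungs was thus reduced to 0.07 in their ratio. The shift of -0.63 was -0.64 without knockout 5, the lung with the lowest level of both genes. A difference within an array shows unequal change of 2 genes and not which of them changed. The log2 differences of Sftpa1 from Lamp3, Lpcat1 and Ctsh were also separate between the groups, so that 4 of its 9 differences from the other surfactant genes did not overlap. Differences of Sftpa1 from other genes did not overlap in 19.5% of all genes. Among the 45 pairs of surfactant genes, 19 differences did not overlap, 7 of them with Lpcat1. The pairs share genes, and no share over pairs of all genes was computed, so this count has no baseline.

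**Figure D3:**
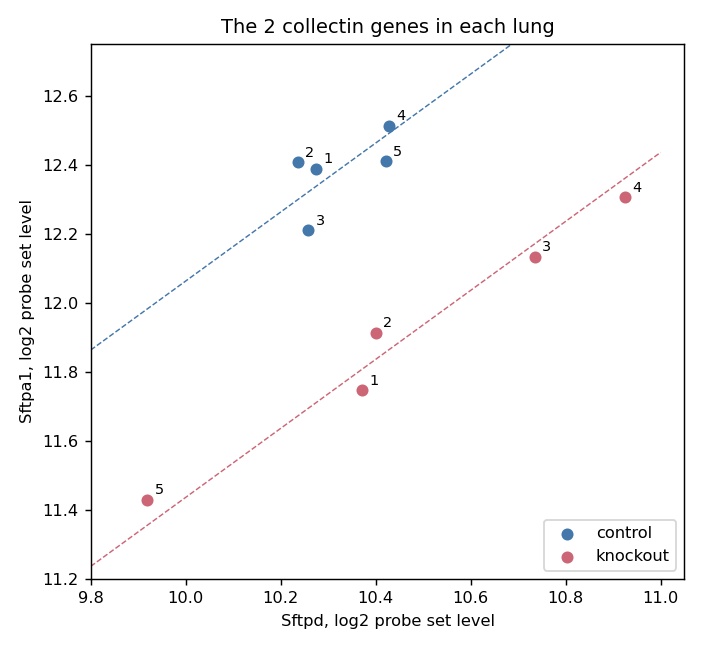
Log2 level of Sftpa1 (vertical axis) against that of Sftpd (horizontal axis) in each lung, with replicate numbers; the dashed lines mark the mean Sftpa1 minus Sftpd difference of each group, 2.06 in controls (blue) and 1.44 in knockouts (red). The knockout lungs spread along their line, and no knockout lung reaches the control line.

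SP-A and SP-D are also made by airway club cells. The mean level of 11 club cell markers was 9.70, 9.66, 9.62, 9.90 and 9.78 in controls 1 to 5 and 9.17, 9.22, 9.44, 9.46 and 9.19 in knockouts 1 to 5. All knockouts were below all controls. Knockouts 3 and 4, the lungs with the highest Sftpa1 and Sftpd of their group, also had the highest club cell levels of that group. The lowest club cell level was that of knockout 1, not of knockout 5, the lung lowest in Sftpa1 and Sftpd. Among knockouts, the mean of the 10 surfactant genes was also highest in knockouts 3 and 4 (12.10 in each). Limma called 5 of the 11 club cell markers lower and 2 higher, with 8 at an unadjusted p under 0.05. The shares of all genes were 1.58%, 1.54% and 13.5%. Among those that fell were Chad (-1.26), Gabrp (-1.13), Cckar (-0.63) and Aldh1a7 (-0.58). The remaining fall, Scgb3a2 (-1.06), and the rises, Gsta3 (0.67) and Hp (0.29), are named with their values known. The part of club cells in the Sftpa1 and Sftpd values was not tested. Scgb1a1, the defining secretory protein of club cells, had a log2 change of -0.14 (limma adjusted p = 0.469) and was looked up after the list's values were seen.

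The 10 surfactant genes were steady among control lungs and less so among knockout lungs. The median SD over control lungs was 0.03 for these genes and 0.10 for all genes. Over knockout lungs it was 0.10 for both. The knockout SD exceeded the control SD in 10 of 10 surfactant genes and in 54.5% of all genes. Without knockout 5 this held for 7 of 10 surfactant genes and 46.6% of all genes. The median knockout SD was then 0.045 for the surfactant genes and 0.093 for all genes. All 10 surfactant genes lay above the median gene level of 7.81, and their SDs were not set against genes of like level. The difference in spread was not tested.

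Leaving out knockout 5 took the knockout SD from 0.34 to 0.25 for Sftpa1, from 0.39 to 0.27 for Sftpd and from 0.14 to 0.10 for Napsa, while that of Lpcat1 went from 0.07 to 0.08. The distance of this lung from the mean of the other 4 knockouts was -0.69 for Sftpd, -0.60 for Sftpa1, -0.33 for Lamp3, -0.24 for Napsa and -0.23 for Sftpb. It was smallest for Sftpc (-0.06) and Lpcat1 (-0.02). The mean level of the other AT2 cell markers differed by -0.27 in knockout 5 from the other knockouts and that of phospholipid synthesis genes by -0.16. Genes of processing, lamellar body trafficking, secretion and clearance differed by -0.03, with knockout 4 the lowest, and regulators of surfactant genes by 0.03. AT1 cell markers differed by 0.02, general epithelial markers by -0.07 and fibroblast markers by 0.08. Club cell markers differed by -0.14, endothelial markers by -0.08 and macrophage and dendritic cell markers by -0.06. Hdac3 in this lung was inside the range of the other knockouts. No label sets this lung apart, and what sets its values apart was not tested.

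**Figure D4:**
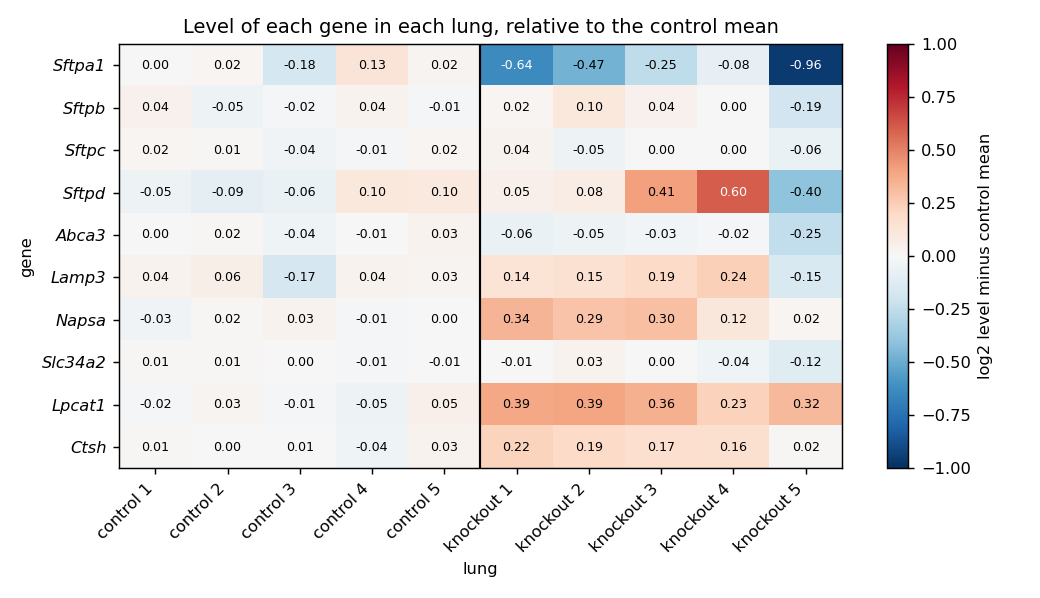
Log2 level of each gene (rows) in each lung (columns) minus the mean of the 5 control lungs, with values printed and coloured from blue (lower) to red (higher). Lpcat1 is raised by 0.23 to 0.39 in all 5 knockouts, Sftpa1 ranges from -0.08 to -0.96, and knockout 5 is below the control mean in 7 of the 10 genes.

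Over the 10 lungs, with group means removed, the median correlation of the 45 gene pairs was r = 0.61 (median Spearman's rho = 0.34), and 42 pairs were positive. Without knockout 5 the median was -0.05 and 22 pairs were positive, so the shared movement of the whole set rests on that lung. Without that lung the highest correlations were those of Sftpa1 with Sftpd (0.91), Napsa with Lpcat1 (0.85) and Abca3 with Lamp3 (0.84). The lowest were those of Sftpa1 with Napsa (-0.80) and of Sftpd with Slc34a2 (-0.77), Napsa (-0.76) and Lpcat1 (-0.74). Genes of a lung share its array and normalization, and these correlations are descriptions. The 5 named genes outside the set that followed its mean deviation most closely were Slc25a45 (r = 0.97), Klhl5 (0.97), Adgrf5 (0.96), Mthfsl (0.96) and Prps2 (0.96), each over 10 lungs. Without knockout 5 these were 0.77, 0.75, 0.69, 0.86 and 0.88. Adgrf5 encodes GPR116, a receptor of AT2 cells known to limit the surfactant pool, and it was not called (-0.06, limma adjusted p = 0.809). Slc25a45, a mitochondrial carrier gene, rose by 0.84 (limma adjusted p = 7.82e-05).

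Taken relative to the mean of the other 9 surfactant genes in the same lung, 3 genes separated the groups. Lpcat1 was higher in all knockouts (0.34), and Sftpa1 (-0.57) and Abca3 (-0.13) were lower in all knockouts. For Abca3 the control SD of this difference was 0.02 and the knockout SD 0.03, while its plain levels overlapped. Differences of other genes from the mean of all 10 surfactant genes separated the groups in 3.27% of genes. Abca3 also moved with the mean of the other 9 over the lungs (r = 0.98, group means removed). A gene outside the set need not do so, and this share is therefore not a like comparison. This relative scale was chosen after the levels were seen and carries no test.

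Beyond the 10 genes, the surfactant system was followed through further gene lists. Over all genes, limma called 1.54% higher and 1.58% lower, with 13.5% at an unadjusted p under 0.05. Of 16 measured genes of phosphatidylcholine and phosphatidylglycerol synthesis and transfer, limma called 0, with 3 at an unadjusted p under 0.05 and a median log2 change of 0.02. Pcyt1a, the rate-limiting enzyme of phosphatidylcholine synthesis, was at 0.26 ± 0.07 (SE; limma adjusted p = 0.0826). Cds1, a CDP-diacylglycerol synthase, was at -0.28 ± 0.08 (limma adjusted p = 0.118). With the replicate block, Cds1 was called lower (limma adjusted p = 0.0439).

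Of 30 genes of processing, lamellar body trafficking, secretion and clearance, 2 rose and 0 fell, with a median log2 change of -0.01. Limma had 5 of the 30 at an unadjusted p under 0.05. Nedd4l, a ubiquitin ligase of the family that binds the SP-C precursor and the epithelial sodium channel, rose by 0.30 ± 0.04 (SE; limma adjusted p = 0.00199). Vamp8, a SNARE of regulated exocytosis, rose by 0.29 ± 0.06 (limma adjusted p = 0.0169). With the replicate block, 2 rose and 3 fell, the falls being Rab32 (-0.25), Rab3d (-0.34) and the receptor chain Csf2rb (-0.22). Without knockout 5, 2 rose and 1 fell, Rab32 (-0.30, limma adjusted p = 0.0192), while Rab3d and Csf2rb had limma adjusted p = 0.207 and 0.216.

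Of 26 regulators of surfactant genes, 1 rose and 2 fell. Limma had 11 of the 26 at an unadjusted p under 0.05, against 13.5% of all genes. Etv5, an ETS factor that maintains AT2 cells, rose by 0.61 ± 0.07 (SE; limma adjusted p = 0.000434). Foxa1 fell by 0.42 ± 0.09 (limma adjusted p = 0.0276) and the FGF receptor Fgfr2 by 0.29 ± 0.06 (limma adjusted p = 0.0178). Foxa2, the paralogue of Foxa1, was at 0.20 (limma adjusted p = 0.0963) and Nkx2-1 at -0.04 (limma adjusted p = 0.825). These last 2 genes are given, with their values known, for the motifs printed above. Leaving out 1 lung at a time, Foxa1 was called in 3 of 10 omissions (limma adjusted p from 0.00815 to 0.0765) and was lost without control 2, 4 or 5 or knockout 1, 2, 3 or 4. Fgfr2 was lost without control 1 (limma adjusted p = 0.0549), and Etv5 was called in 10 of 10. With the replicate block 3 regulators rose and 2 fell, with Klf5 and Srebf1 as the added rises. The block called 2.28% of all genes higher and 2.44% lower.

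Of 17 other AT2 cell markers, 0 rose and 3 fell, with a median log2 change of 0.05. Limma had 8 of the 17 at an unadjusted p under 0.05, against 13.5% of all genes. Hc, complement component C5, fell by 1.74 ± 0.24 (SE; limma adjusted p = 0.00142), the peptidase gene Cpm by 0.53 ± 0.08 (limma adjusted p = 0.00409) and Sfta2, a surfactant-associated secreted protein, by 0.26 ± 0.06 (limma adjusted p = 0.0446). With the replicate block, 3 rose and 3 fell, and the added rises were Cxcl15, S100g and Lcn2. The same 3 and 3 genes were called without knockout 5. Sfta2 was called in 2 of 10 single omissions, those of control 4 and knockout 5 (limma adjusted p from 0.0144 to 0.111 over the 10), so 0 rose and 2 fell in 8 of them. Hc and Cpm were called in 10 of 10.

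**Figure D5:**
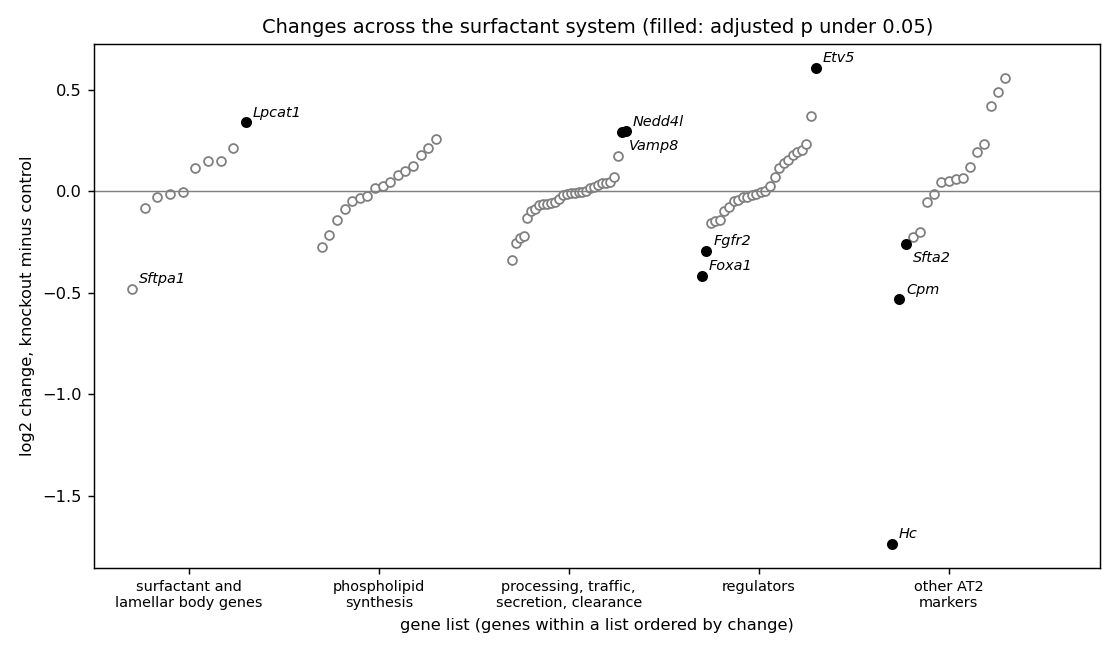
Log2 change, knockout minus control (vertical axis), of every measured gene in 5 lists of the surfactant system, ordered by change within a list; filled points were called by limma and are named, and Sftpa1 is named although it was not called. Most genes lie close to 0, and Hc, at -1.74, lies furthest from it.

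Other cell types were followed through marker lists, beside 1.54% of all genes called higher, 1.58% lower and 13.5% at an unadjusted p under 0.05. Of 11 general epithelial markers 5 rose and 0 fell, the keratins Krt18 by 1.34, Krt8 by 0.74 and Krt19 by 0.67 and the claudin Cldn7 by 0.32 among them. Limma had 7 of the 11 at an unadjusted p under 0.05. Epcam, looked up after its values were seen, was at 0.04 (limma adjusted p = 0.85). Looked up in the same way, Spint1 was at -0.16, St14 at -0.09 and Esrp1 at -0.02. Cdh1 was at 0.18 and Grhl2 at 0.04, and limma called none of these. The list's mean level ran from 9.51 to 9.60 in controls and from 9.84 to 9.92 in knockouts. Of 12 AT1 cell markers 1 rose and 2 fell: Gprc5a rose by 0.34, and Pdpn fell by 0.52 and Spock2 by 0.42. Limma had 5 of the 12 at an unadjusted p under 0.05. Without knockout 5, Aqp5, an AT1 water channel, was called as well (0.62, limma adjusted p = 0.00264), against 0.47 and limma adjusted p = 0.115 with all lungs. The count of AT1 markers called higher was also 2 with the replicate block and without control 4, and 3 with numbers 1 to 3 only. Of 7 fibroblast and 7 endothelial markers limma called 0, also 0 at an unadjusted p under 0.05; those with the smallest p were Col3a1 (-0.09) and Lum (0.16), and Cdh5 (-0.09) and Tie1 (0.06). The part of these cell types in the values of the surfactant genes was not tested.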

How the data were processed

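Each lung was hybridised to 1 array, from RNA primed at its poly(A) tail per the labels' protocols. The authors deposited log2 probe set levels; oligo, RMA and limma are named, without versions, per the submitters' processing notes. The sources used here do not state a genome build for the probes or a filter on rows. The table held 24888 probe sets, from 3.53 to 13.61, with sample medians from 7.43 to 7.46, and no sample was identical to another. The platform's annotation gave 18922 probe sets 1 symbol, 1343 several and 4623 none. Each gene took its probe set with the highest mean, which gave 17919 genes. Knockout and control were compared with limma 3.58.1 (lmFit, eBayes, two-sided) in R 4.3.3, with Benjamini-Hochberg adjustment over all genes at 0.05, and tested on simulated data first. Precision is limited by the 10 lungs, with a median SE of 0.066 for a log2 change.

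Members, lists, alternatives and the naming rule were chosen with earlier results of these data known. The rule names the 10 genes, up to 4 called members of each list by smallest p, or the 2 of smallest p where fewer than 2 were called, and the 5 named genes most like the set. List genes not measured under 1 symbol included Chkb, Cept1, Prdx6 and Cd74. Replicate numbers 1 to 5 occur in each group, without a stated meaning. With group means removed, same-numbered lungs correlated at 0.319, 0.154, 0.183, 0.485 and 0.36 over all genes, while differently numbered pairs had a median of -0.083 and reached 0.33, above 3 of the 5. All 5 exceed 0.1, so the numbers were taken as pairs and used as a block in an alternative. This pairing comes from the data. P-values measure the spread between lungs that the labels call biological replicates.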

Additional observations from a re-analysis of the deposited data

Results flagged for a closer look

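In 4 of 20 groups of 5 lungs, the gap between the lowest lung and its nearest neighbour took up more of the group's range than Dixon's 95% critical value of 0.71 allows; chance flags about 1 in 20 such groups. Knockout 5 was the low lung for Abca3 (0.796 of the range), Lamp3 (0.742) and Ctsh (0.71, just past the critical value before rounding). Control 3 was the low lung for Lamp3 (0.866). The causes were not tested.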

How the results depend on the processing

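Lpcat1 was called in 20 of 21 alternatives, with log2 changes from 0.28 to 0.38, and the one without a call used only lungs 4 and 5 (0.28), where limma called 2 genes in all. With the replicate number as a block its change was 0.34 (limma adjusted p = 0.00417), and the block changed no call among the 10 genes. The count of genes called higher was 1 in the main comparison, 2 with a trend and robust prior (Ctsh added, limma adjusted p = 0.0394), 2 with numbers 1 to 3 only, 2 with the sets 1 to 3 and 4 to 5 as a block (Napsa in both) and 0 with numbers 4 and 5 only. Leaving out 1 lung at a time gave 1 to 3 higher and 0 to 1 lower. Signs turned only for changes of 0.065 or less: Sftpb, which ran from -0.032 to 0.041 over the single omissions, to 0.006 without control 1, 0.004 without control 4, 0.041 without knockout 5 and 0.065 with numbers 1 to 3 only, Slc34a2 to 0.002 with numbers 1 to 3 only, and Sftpd to -0.002 with numbers 4 and 5 only. The median pair correlation ran from -0.046, without knockout 5, to 0.724 over the single omissions. Of 420 values for counts in the other lists, 377 stayed within 1.5 times the main count. The cause of these differences was not tested.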
